A study of Mus musculus with 4 samples.

Results

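The 10 genes described here encode enzymes that set the rate of glycolysis and carriers that move its end product: the hexokinases *Hk2* and *Hk3*, the bifunctional regulators *Pfkfb1*, *Pfkfb2*, *Pfkfb3* and *Pfkfb4*, the lactate dehydrogenase subunit *Ldhb*, and the monocarboxylate transporters *Slc16a1*, *Slc16a3* and *Slc16a7*. They were chosen as genes of this pathway that lie outside the glycolytic set the study followed, and they are 10 of 17196 protein-coding genes with at least 1 accessible peak. Together they hold 120 of the 189598 peaks.

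Inguinal white adipose tissue (iWAT) of 8-week-old male C57BL/6J mice was profiled by single-nucleus ATAC-seq, which marks DNA that a transposase can reach, so the values are chromatin accessibility and not mRNA. The 21 mice fall into 7 groups of 3. They comprise day 0 at room temperature (22 °C), cold exposure at 6.5 °C for 1, 3 or 7 days (C), and the selective β3-adrenergic receptor agonist CL-316,243 at 1 mg/kg for 1, 3 or 7 days (CL). All groups share strain, sex and age. Nuclei came from whole minced tissue, and mouse, group and cell type of each nucleus are the authors' annotation. The 32552 nuclei (1111 to 2021 a mouse) fall into 12 annotated cell types, and each mouse contributed 1340376 to 6916698 counts over all peaks. A count is 1 nucleus with reads in 1 peak. Counts were summed over the peaks on a gene body and its 2000 bases upstream, per mouse and cell type, and scaled to CPM, the count divided by all counts on genes in that sum and multiplied by 1000000. Sums over at least 10 nuclei make a library, and there were 223. Of 28031 distinct nucleus barcodes, 4218 occurred in 2 or more mice. Within an annotated cell type, a shift in the makeup of its nuclei and a shift within each nucleus cannot be told apart.

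Glucose taken up by a cell is trapped by a hexokinase and enters glycolysis, whose committed step is run by phosphofructokinase. The PFKFB enzymes make and break the sugar bisphosphate that activates phosphofructokinase, and so tune the flux up or down. Lactate dehydrogenase interconverts pyruvate and lactate, and the monocarboxylate transporters carry both across the plasma membrane. White adipocytes are known to release lactate, and thermogenic adipocytes are known to burn glucose as well as fatty acids.

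Promoter sequences of 4 members and the middle of 1 *Hk2* peak are shown first, because the sums or peaks of these members lead the results that follow. They are from the GRCm38.p6 (mm10) build and read 5′ to 3′ on the strand of the gene. Promoters are RefSeq windows of 250 bases before to 50 after a start, and 9 of the 10 members were matched in that table. Capitals mark the hypoxia response core ACGTG and the E-box CACGTG, which contains it. The windows are *Slc16a1* at chr3:104638414-104638713 on the plus strand, *Ldhb* at chr6:142507908-142508207 on the minus strand, *Pfkfb3* at chr2:11553880-11554179 on the minus strand, *Slc16a3* at chr11:120948817-120949116 on the plus strand (RefSeq start 587 bases downstream of the GENCODE start) and the intronic *Hk2* peak at chr6:82766757-82767056 on the minus strand.
Slc16a1 promoter: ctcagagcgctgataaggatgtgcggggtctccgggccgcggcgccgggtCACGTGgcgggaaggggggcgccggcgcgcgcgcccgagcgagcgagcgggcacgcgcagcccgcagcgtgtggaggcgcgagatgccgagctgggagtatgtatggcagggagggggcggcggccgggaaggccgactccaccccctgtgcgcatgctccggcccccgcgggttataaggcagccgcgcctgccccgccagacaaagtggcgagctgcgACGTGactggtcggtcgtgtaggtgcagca
Ldhb promoter: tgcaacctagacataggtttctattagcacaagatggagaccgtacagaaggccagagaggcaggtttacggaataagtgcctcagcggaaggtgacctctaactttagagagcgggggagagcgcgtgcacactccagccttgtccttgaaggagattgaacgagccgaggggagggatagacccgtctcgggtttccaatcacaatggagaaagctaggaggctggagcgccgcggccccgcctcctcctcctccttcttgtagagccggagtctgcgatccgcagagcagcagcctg
Pfkfb3 promoter: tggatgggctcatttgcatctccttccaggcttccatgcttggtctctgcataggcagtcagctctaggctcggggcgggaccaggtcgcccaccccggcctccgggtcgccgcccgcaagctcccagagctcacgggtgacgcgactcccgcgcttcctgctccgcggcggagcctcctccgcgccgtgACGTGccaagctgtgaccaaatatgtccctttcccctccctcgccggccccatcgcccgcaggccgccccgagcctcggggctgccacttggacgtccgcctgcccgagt
Slc16a3 promoter: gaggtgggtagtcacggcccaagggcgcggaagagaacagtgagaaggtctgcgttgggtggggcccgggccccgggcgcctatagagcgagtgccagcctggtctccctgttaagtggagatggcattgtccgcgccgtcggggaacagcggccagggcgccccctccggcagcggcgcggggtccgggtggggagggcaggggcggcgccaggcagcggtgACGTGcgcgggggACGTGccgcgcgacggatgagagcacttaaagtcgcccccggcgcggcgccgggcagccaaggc
Hk2 intronic peak: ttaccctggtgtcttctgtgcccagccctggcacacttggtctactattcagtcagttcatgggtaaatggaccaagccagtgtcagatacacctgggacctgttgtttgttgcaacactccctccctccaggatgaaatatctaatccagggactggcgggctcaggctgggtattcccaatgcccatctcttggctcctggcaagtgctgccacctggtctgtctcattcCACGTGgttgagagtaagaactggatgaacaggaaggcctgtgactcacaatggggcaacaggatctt

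Searched on both strands, ACGTG occurred 3 times in the *Slc16a1* promoter, 2 times in that of *Slc16a3*, 1 time in that of *Pfkfb3*, not in that of *Ldhb*, and 2 times in the *Hk2* peak. Each E-box reads the same on both strands and so gives 2 of these matches, and 1 E-box lay in the *Slc16a1* promoter and 1 in the *Hk2* peak. Of all RefSeq promoters, 19.6% held ACGTG and 7.15% the E-box. In the middle 300 bases of all peaks the shares were 15.8% and 5.31%. The cAMP response element TGACGTCA and the ESRR consensus TCAAGGTCA were in none of these 5 windows, and 1.79% and 0.423% of all promoters held them. GC content of the windows ran from 52.7% in the *Hk2* peak to 73.7% in the *Slc16a1* promoter.

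The annotated cell types were first set against marker genes. By the sums of their marker lists most labels carried their markers. For example, *Pax5*, a transcription factor of B cells, was at 717 CPM in B cells and at 47.6 to 118 CPM elsewhere, and *Ucp1*, the uncoupling protein of thermogenic adipocytes, was at 5.6 CPM in white nuclei and at 54.9 CPM in beige ones. Not every single marker followed its label. *Cdh5* was at 90.8 CPM in endothelial nuclei and 108 CPM in macrophages. *Adgre1* was at 34.9 CPM in macrophages and 57 CPM in dendritic cells. *Ppargc1b*, from the beige list, was at 593 CPM in beige nuclei and 666 CPM in the cluster annotated VSMC. The endothelial list summed to 683 CPM in endothelial nuclei and 486 CPM in CD4 T cells. The cluster annotated VSMC (vascular smooth muscle cells) went against its label. Its skeletal muscle list of 6 genes summed to 1383 CPM, against 94.7 to 221 CPM in the other 11 cell types, led by *Ttn* (490 CPM), *Ryr1* (357 CPM) and *Ckm* (293 CPM). Its smooth muscle list summed to 141 CPM, below the 419 CPM of the progenitor cluster APC2, with *Acta2* at 7.73 CPM. It is called the cluster annotated VSMC below. It had 10 libraries of 10 to 57 nuclei, none of them from day 0 or from day 1 of cold, so its levels stand for treated mice only.

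Across the 12 cell types, *Pfkfb3* and *Hk2* were the most accessible members per kb of gene in white adipocytes, at 9.14 and 9.76 CPM per kb, followed by *Pfkfb4* (4.96), *Slc16a1* (3.47), *Slc16a3* (3.25), *Pfkfb2* (2.33), *Pfkfb1* (1.83), *Ldhb* (1.59), *Slc16a7* (1.33) and *Hk3* (1.00 CPM per kb). In beige adipocytes *Slc16a1* (5.27 CPM per kb) stood above *Pfkfb4* (4.41 CPM per kb). The members had unlike patterns over cell types. Neighbours in each gene's order of mean levels were compared within mice by sign-flip permutation, over 110 pairs, and 5 pairs differed after adjustment. Because the clusters were built on the same counts, these tests are not independent of them.

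**Figure D1:**
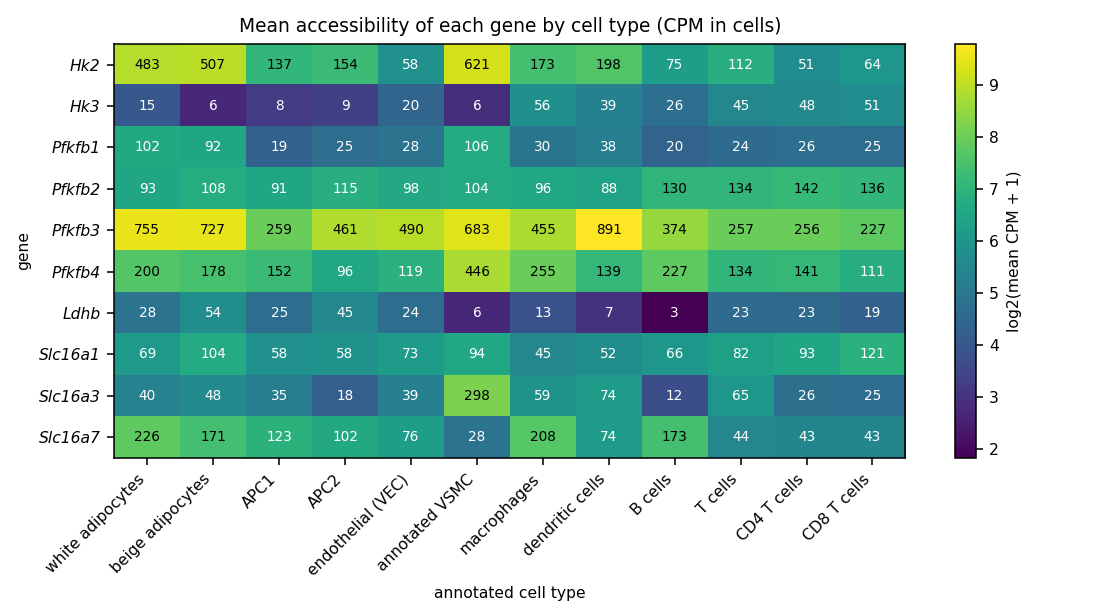
Mean CPM of the 10 genes (rows) in 12 annotated cell types (columns), with colour on a log2(mean CPM + 1) scale and the mean printed in each cell. *Hk2*, *Pfkfb1*, *Pfkfb3* and *Slc16a7* are brightest or near brightest in white adipocytes, and *Slc16a3* and *Pfkfb4* in the cluster annotated VSMC.

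Among the hexokinases, *Hk2* (chr6:82725025-82774454, minus strand, 21 peaks) encodes the insulin-responsive isoform of fat and muscle. Its level was 621 ± 172 CPM (SD, n = 10) in the cluster annotated VSMC, 483 ± 52.3 CPM (SD, n = 21) in white adipocytes and 507 ± 79.6 CPM (SD, n = 19) in beige ones. Every other cell type had a mean under 200 CPM. White adipocytes were above dendritic cells (198 CPM), the next in order, in 17 of 17 mice (permutation test, adjusted p = 0.00165). T cells (112 CPM) were above B cells (75.3 CPM) in 18 of 20 mice (permutation test, adjusted p = 0.011). The 3 highest levels did not separate from each other. The *Hk2* promoter peak was open in every cell type (15.9 to 69.9 CPM, pooled over nuclei), while the intronic peak 7.5 kb into the gene was at 35.2 CPM in white and 55.8 CPM in beige adipocytes, 16.7 CPM in the cluster annotated VSMC and 2.69 CPM or less in the 9 others.

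*Hk3* (chr13:55005985-55021385, minus strand, 5 peaks) encodes the hexokinase known from myeloid cells. It was low everywhere and highest in macrophages, at 56.5 ± 28.1 CPM (SD, n = 21), with CD8 T cells at 50.8 CPM and CD4 T cells at 48.3 CPM next. No neighbouring pair of *Hk3* passed the adjusted test, and beige adipocytes were lowest at 5.66 CPM, with 9 of 19 libraries at 0. The gene sums hid unlike peaks. The peak at the gene start was at 22.3 CPM in macrophages (pooled over nuclei) and between 0.47 and 1.52 CPM in B cells and the 3 T cell clusters, whereas an intronic peak 3.1 kb into the gene was at 23.2 to 33.6 CPM in the T cell clusters and 9.03 CPM in macrophages.

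The 4 regulators of phosphofructokinase differed in where they were open. *Pfkfb1* (chrX:150588229-150643878, plus strand), the isoform known from liver and muscle, was at 106 ± 40.8 CPM (SD, n = 10) in the cluster annotated VSMC, 102 ± 20.5 CPM (SD, n = 21) in white and 91.8 ± 45 CPM (SD, n = 19) in beige adipocytes, and at 18.8 to 37.8 CPM in the 9 others. Beige adipocytes were above dendritic cells, the next in order, in 14 of 15 mice, yet the adjusted p was 0.139 in the permutation test. Of its 8 peaks, 2 also count for the neighbouring gene *Apex2*. *Pfkfb2* (chr1:130689182-130729253, minus strand), the isoform known from heart, varied least, from 88.3 CPM in dendritic cells to 142 CPM in CD4 T cells, with no neighbours apart. All 5 of its peaks also count for *Yod1* or *Gm29427*, so its values cannot be assigned to it alone.

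*Pfkfb3* (chr2:11471433-11554077, minus strand, 27 peaks) encodes the inducible isoform that favours synthesis of the activator. It was highest in dendritic cells at 891 ± 210 CPM (SD, n = 17), then in white (755 ± 120 CPM, SD, n = 21) and beige adipocytes (727 ± 137 CPM, SD, n = 19), and lowest in CD8 T cells (227 ± 29.2 CPM, SD, n = 20). B cells (374 CPM) were above the progenitor cluster APC1 (259 CPM) in 19 of 20 mice (permutation test, adjusted p = 0.0011, the raw p of 1e-05 being the smallest the draws can give). In white adipocytes the peak at the gene start was not the leading one. The highest was a peak 52.3 kb in, at the start of another annotated coding transcript, with 90.9 CPM. Across the 12 cell types that peak was at 30.8 to 119 CPM. The start peak had 26.9 CPM in white adipocytes (pooled over nuclei), the lowest of the 12 cell types, and 71 to 83.8 CPM in the T cell clusters, while a peak 32.2 kb in had 49.7 CPM in white adipocytes, 99.7 CPM in dendritic cells and 3.03 CPM or less in B cells and T cell clusters.

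*Pfkfb4* (chr9:108991778-109032228, plus strand, 17 peaks), another isoform of the same enzyme, was highest in the cluster annotated VSMC at 446 ± 109 CPM (SD, n = 10), before macrophages (255 ± 80 CPM, SD, n = 21). The cluster was higher in 9 of 10 mice with both libraries, with an adjusted p of 0.119 (permutation test). B cells (227 CPM) were above white adipocytes (200.5 CPM) in 19 of 21 mice (permutation test, adjusted p = 0.00293). A peak 18.1 kb into the gene was at 71.4 CPM in the cluster annotated VSMC (pooled over nuclei) and at 21.4 CPM or less in the other cell types.

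*Ldhb* (chr6:142490249-142507957, minus strand, 2 peaks) encodes the heart-type subunit of lactate dehydrogenase. It was highest in beige adipocytes (53.9 ± 37.9 CPM, SD, n = 19) and in APC2 (45.1 ± 24.9 CPM, SD, n = 19), and at 28.2 ± 8.77 CPM (SD, n = 21) in white adipocytes. B cells, with 21 counts in all, were at 2.56 ± 5.01 CPM (SD, n = 21), and 8 of their 21 libraries had none. The cluster annotated VSMC had 4 counts in all. CD8 T cells (18.9 CPM) were above macrophages (13.2 CPM) in 14 of 20 mice (permutation test, adjusted p = 0.0414). Macrophages had 22 counts in all and 8 of 21 libraries at 0, and CD8 T cells 99 counts and 2 of 20 at 0. The part of these zeros in the difference was not tested.

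The transporters differed from each other in where they were open. *Slc16a1* (chr3:104638668-104658462, plus strand, 6 peaks) encodes MCT1, a carrier for lactate in and out of many cells, and was widely open, from 45.4 CPM in macrophages to 121 CPM in CD8 T cells, with beige adipocytes second at 104 ± 42.1 CPM (SD, n = 19) and no neighbours apart. *Slc16a7* (chr10:125219270-125389465, minus strand, 22 peaks) encodes MCT2, a carrier of high affinity. It was at 226 ± 46.9 CPM (SD, n = 21) in white adipocytes, 208 ± 98.5 CPM (SD, n = 21) in macrophages, 173 ± 21.7 CPM (SD, n = 21) in B cells and 171 ± 37.1 CPM (SD, n = 19) in beige adipocytes, which do not separate as neighbours, and at 28.4 to 123 CPM elsewhere.

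*Slc16a3* (chr11:120948480-120960868, plus strand, 7 peaks) encodes MCT4, the carrier known for lactate export from glycolytic muscle fibres. In the cluster annotated VSMC its 10 libraries lay at 232, 237, 255, 270, 272, 301, 328, 337, 345 and 404 CPM. The highest single library of any other cell type was a beige one at 186 CPM, so the cluster did not overlap with the rest. That beige library, replicate 2 of day 0, had 12 nuclei and 16099 counts on genes. How many of all genes set this cluster apart in the same way was not counted. Dendritic cells, the next in order, had a mean of 73.8 ± 34.4 CPM (SD, n = 17), and the cluster was higher in all 6 mice with both libraries (exact permutation test, p = 0.0312, the smallest possible with 6 mice, adjusted p = 0.191). The leading peak, 3.8 kb into the gene, was at 103 CPM there (pooled over nuclei) and at 13.3 CPM or less in the 11 other cell types. The same cluster held the high skeletal muscle markers given above, whose part in these levels was not tested.

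**Figure D2:**
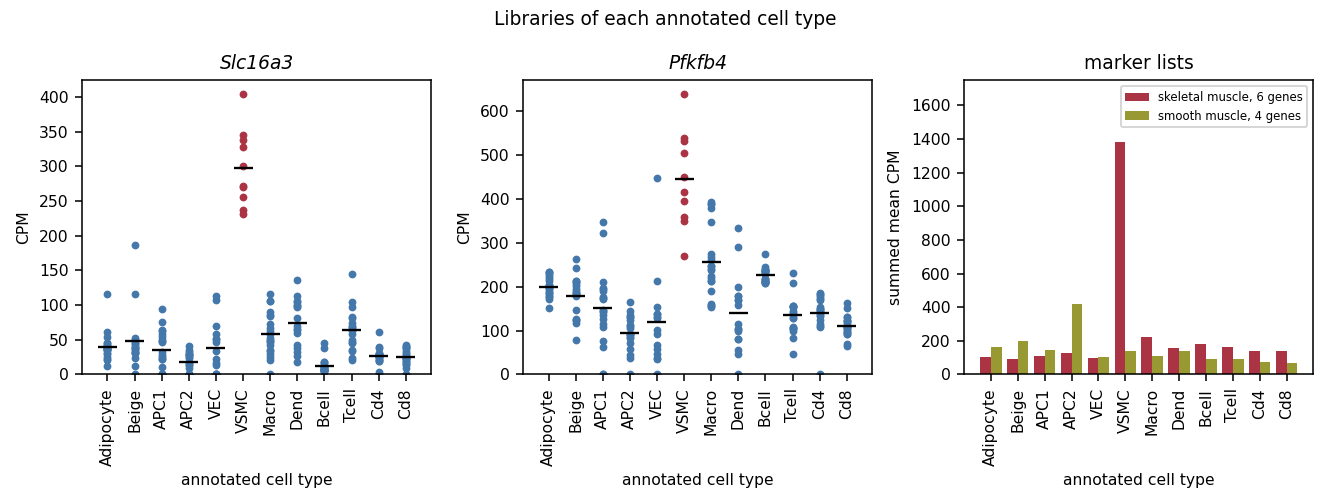
CPM of *Slc16a3* and *Pfkfb4* in each library (points) with the mean (line) by annotated cell type, and the summed mean CPM of the skeletal and smooth muscle marker lists (bars). *Slc16a3* libraries of the cluster annotated VSMC lie between 232 and 404 CPM, above every other library, and the same cluster has a skeletal muscle sum of 1383 CPM.

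The genes most like each member were taken by Pearson's r of log2(mean CPM + 1) over the 12 cell types, among 15016 genes. These r values describe 12 points that share libraries and depth and carry no test. The 3 closest were *Abcc1* (r = 0.95), *Akap9* and *Ankrd40* for *Hk2*, *Vrk1* (0.96), *Mre11a* and *Fxyd5* for *Hk3*, *Enoph1* (0.98), *Blcap* and *Ybx2* for *Pfkfb1*, and *Nek8* (0.94), *Smpdl3a* and *Unc45a* for *Pfkfb2*. They were *Slc22a23* (0.96), *Nfe2l1* and *Sh3glb1* for *Pfkfb3*, *Adssl1* (0.92), *Mypn* and *Zfand5* for *Pfkfb4*, and *Gbp6* (0.96), *Oit3* and *Grik4* for *Ldhb*. For the transporters they were *Pfdn2* (0.88), *Rai1* and *Ranbp9* for *Slc16a1*, *Cystm1* (0.92), *Auh* and *Rabl6* for *Slc16a3*, and *Acbd5* (0.91), *Slc17a1* and *Epb41l2* for *Slc16a7*.

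Beige adipocytes, the thermogenic cells that cold and CL induce, were then compared with white adipocytes. *Ldhb* and *Slc16a1* were more accessible in beige nuclei and *Slc16a7* less. In the edgeR fit, 3 of the 9 members tested were called at an adjusted p under 0.05, 2 higher and 1 lower. This is close to the background, since 30.4% of the 10693 genes tested were called (15.0% higher and 15.4% lower in beige). White and beige clusters were themselves defined on these counts, which the test does not account for.

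*Ldhb* ranged from 19.1 to 58 CPM (median 27.6) over 21 white libraries and from 11.2 to 186 CPM (median 46.7) over 19 beige libraries. The beige value of 186 CPM came from replicate 2 of day 0, with 12 nuclei and 16099 counts on genes. Beige nuclei were higher in 15 of 19 mice, by 0.65 on the log2 scale (SE 0.15, adjusted p = 0.000187), and the ranges overlapped widely. By group, beige was higher in all 3 mice at day 0 and on days 1 and 7 of cold, in 2 of 3 on day 3 of cold and on days 3 and 7 of CL, and not in the 1 mouse of day 1 of CL with both libraries.

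*Slc16a1* ranged from 46.9 to 116 CPM (median 67.4) in white and from 36.9 to 210 CPM (median 88.1) in beige libraries. It was higher in beige nuclei of 16 of 19 mice, by 0.53 (SE 0.10, log2, adjusted p = 4.57e-06). In CL on day 3 it was higher in 1 of 3 mice, with means of 68.9 CPM in white and 68.2 CPM in beige nuclei. With promoter peaks only, the gene was not called (0.26, log2, adjusted p = 0.122). Its start peak alone averaged 54.1 ± 17 CPM (SD, n = 21) in white and 66.8 ± 26.3 CPM (SD, n = 19) in beige libraries and was not called either (0.27, log2, adjusted p = 0.0865). Pooled over nuclei, an intronic peak 16.5 kb into the gene was at 3.72 CPM in white and 11.1 CPM in beige nuclei. An intronic peak at 5.4 kb was at 8.59 and 15 CPM. Neither of these intronic peaks passed the filter on counts, so neither was tested, and pooled values show no spread between mice.

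*Slc16a7* ranged from 58 to 277 CPM (median 239) in white and from 119 to 264 CPM (median 163) in beige libraries. It was lower in beige nuclei of all but 1 of the 19 mice, by a log2 difference of -0.40 (SE 0.07, adjusted p = 4.17e-06). The exception was a mouse of day 0, and the white library at 58 CPM was the shallowest one, from day 1 of CL.

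**Figure D3:**
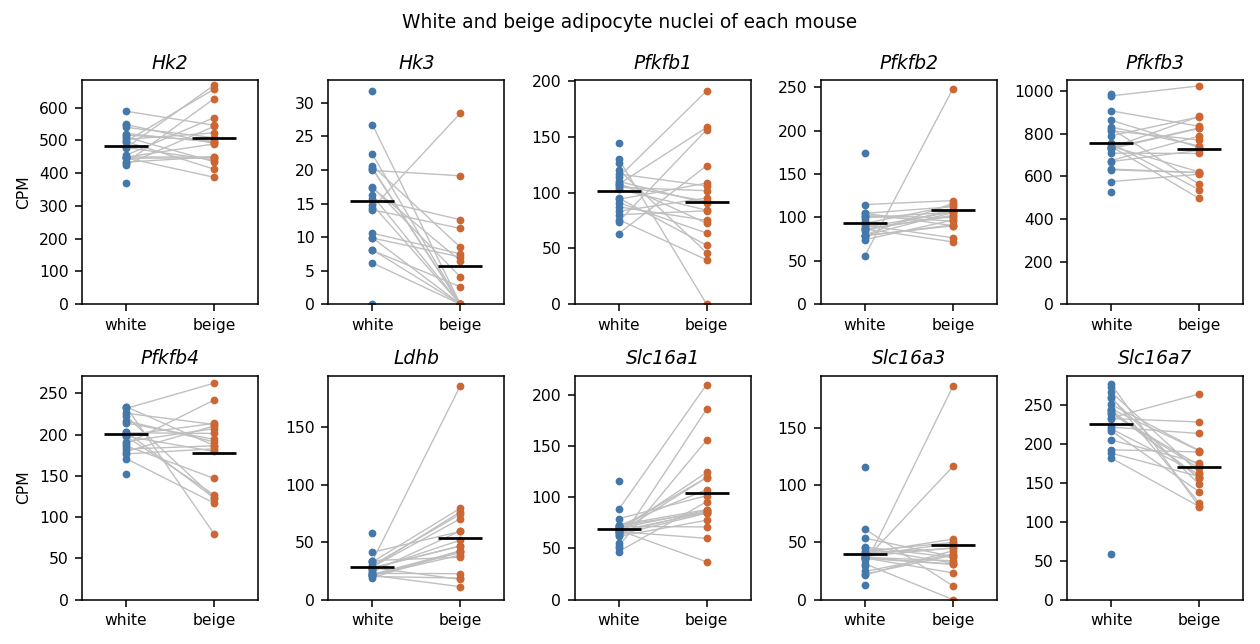
CPM of each gene in the white and beige adipocyte nuclei of each mouse (points), with grey lines joining the libraries of 1 mouse and black lines at the means of 21 white and 19 beige libraries. *Ldhb* and *Slc16a1* are higher in beige in 15 and 16 of 19 mice, and *Slc16a7* is higher in beige in 1 of 19.

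The other members tested did not pass. Their log2 differences were 0.09 for *Hk2* (SE 0.06), 0.15 for *Pfkfb2* (SE 0.09), 0.03 for *Slc16a3* (SE 0.14), -0.07 for *Pfkfb3* (SE 0.05), -0.11 for *Pfkfb1* (SE 0.10) and -0.13 for *Pfkfb4* (SE 0.07). *Hk3* was too low for the filter on counts, with 22 counts in all beige libraries against 284 in white (5.66 and 15.4 CPM). It was higher in beige in 1 of 19 mice. Summed B cell markers were at 110 ± 26.1 CPM (SD, n = 21) in white and 99.4 ± 37.6 CPM (SD, n = 19) in beige libraries, T cell markers at 72.3 and 55.8 CPM and macrophage markers at 55.5 and 47.8 CPM. With the peaks that are higher in B cells left out, an alternative added after seeing the data, *Slc16a1* was at 0.48 and *Slc16a7* at -0.39, both still called. With promoter peaks only, *Pfkfb3* (0.67), *Ldhb* (0.61) and *Slc16a7* (-0.60) were called, where 10.1% of genes were.

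The rest of the pathway gives the frame. Of the glycolytic set that the study followed in these same samples, which is no independent evidence of direction, 7 of 10 genes were called higher in beige and none lower. Over all genes tested the shares were 15.0% higher and 15.4% lower. The median log2 difference of the set was 0.44, against 0.02 over all genes tested. *Gpi1* (0.81), the isomerase after hexokinase, led, with *Hk1* (0.54), *Pfkl* (0.54), *Pkm* (0.49), *Pgk1* (0.48), *Gapdh* (0.39) and *Eno1* (0.30). The median of the 9 members was 0.03. Of 24 further genes of glycolysis, pyruvate and lactate, 15 were tested and 8 were called, 5 higher and 3 lower in beige. The 5 higher were *Tigar* (0.51) and *Fbp2* (0.50), whose products oppose glycolytic flux, *Pfkm* (0.49), *Bpgm* (0.47) and *Pgam1* (0.38). Among those lower in beige were *Emb* (-1.01), which encodes embigin, the partner protein of MCT2, and *Hcar1* (-0.41), the lactate receptor. The list median was 0.20.

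Single peaks showed differences within genes whose sums did not differ. Of the 120 peaks of the members, 28 were tested and 6 were called, 2 higher and 4 lower, against 16.3% of all 10991 peaks tested (7.67% higher, 8.61% lower). The number called is near that background, and the clusters were defined on these same counts. Leaving out TMM scaling turned the balance over all peaks, from 843 higher of 1789 called to 1246 of 1921. The number of member peaks called stayed at 6, but they were not the same 6: the *Slc16a7* start peak dropped out and another member peak came in.

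Within *Hk2*, the intronic peak at chr6:82766612-82767200, 7.5 kb from the start, whose middle is printed above, was at 33.3 ± 9.17 CPM (SD, n = 21) in white and 61.1 ± 17.3 CPM (SD, n = 19) in beige libraries. It was higher in beige in 18 of 19 mice, by 0.62 (log2, SE 0.12, adjusted p = 1.54e-05). Without the filter on low counts the difference was 0.28 and was not called (adjusted p = 0.117). Further into the gene, the intronic peaks at 21.2 and 32.8 kb were lower in beige, each in 14 of 19 mice, with log2 differences of -0.57 (SE 0.16, adjusted p = 0.0047) and -0.45 (SE 0.13, adjusted p = 0.0101). The second of these calls was lost without replicate 1 of day 3 of cold (-0.37, adjusted p = 0.0714). The promoter peak of *Hk2* differed by -0.02 (SE 0.11).

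*Pfkfb3* showed the same kind of split. Its start peak at chr2:11552472-11554397, which spans the promoter printed above, was at 27.3 ± 9.59 CPM (SD, n = 21) in white and 45.1 ± 24.7 CPM (SD, n = 19) in beige libraries, higher in beige in 15 of 19 mice by 0.67 (log2, SE 0.15, adjusted p = 0.000229). Without the filter on low counts it was 0.31 and was not called (adjusted p = 0.13). An intronic peak at 57.2 kb (chr2:11496578-11497138) was lower in beige in 14 of 19 mice, by a log2 difference of -0.73 (SE 0.16, adjusted p = 0.000151), from 31.8 to 22.2 CPM. The other 8 tested *Pfkfb3* peaks were between -0.36 and 0.03 and did not pass. For *Slc16a7*, the start peak at chr10:125388422-125389843 was at 32.4 ± 9.82 CPM (SD, n = 21) in white and 24.2 ± 11.7 CPM (SD, n = 19) in beige libraries (log2 difference -0.48, SE 0.16, adjusted p = 0.0289), lower in beige in 13 of 19 mice. That call was lost without TMM scaling (adjusted p = 0.0726), with libraries of at least 30 nuclei only (0.104) and without any 1 of 3 mice: replicate 1 of day 3 of cold (0.11) and replicates 1 (0.0576) and 3 (0.0538) of day 7 of CL. It held without each of 13 other mice, and with 5 further mice left out in turn the peak had no tested value. Pooled over nuclei, this peak was at 67.4 CPM in B cells, 30 CPM in white and 22.2 CPM in beige adipocytes. The part of B cell reads in it was not tested.

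**Figure D4:**
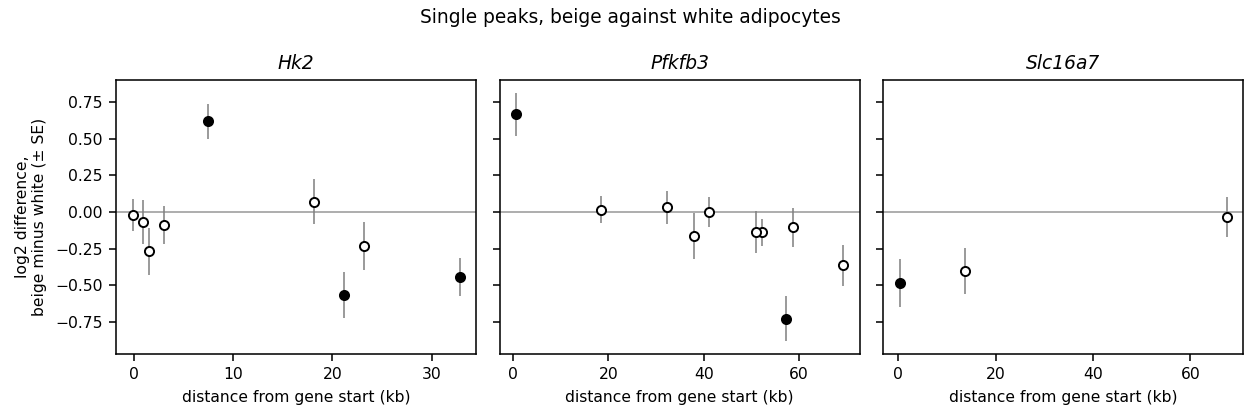
Log2 difference between beige and white adipocytes (± SE) of each tested peak of *Hk2*, *Pfkfb3* and *Slc16a7* against its distance from the gene start in kb, with filled points for an adjusted p under 0.05. *Hk2* has 1 called peak above 0 and 2 below, *Pfkfb3* 1 above and 1 below, and *Slc16a7* 1 below.

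Cold and CL were next compared with day 0 in adipocyte nuclei, white and beige summed per mouse. No member was called in the sum of its peaks. Over 8 contrasts (each of the 6 treated groups and the means of the cold and of the CL groups), 0 of 80 tests were called by edgeR, where 3.88% of tests over all genes were. For each comparison, the share of all genes called was 0.34%, 1.67% and 5.09% on days 1, 3 and 7 of cold, 2.61%, 4.77% and 7.81% on days 1, 3 and 7 of CL, 2.33% for the cold mean and 6.42% for the CL mean. DESeq2 also called 0, and 2 of the 80 had an unadjusted p under 0.05, a share that was not counted over all genes. These were *Pfkfb3* on day 1 of cold (0.28, SE 0.10, log2, adjusted p = 0.235) and *Slc16a3* on day 3 of CL (0.49, SE 0.21, adjusted p = 0.167). The contrasts share the 3 day 0 mice. The median log2 difference of the members was 0.03, and that of all genes was -0.01. Against the means of the treated groups, the standard errors of the members ran from 0.08 for *Pfkfb3* to 0.39 for *Hk3*. On day 1 of cold that of *Hk3* was 0.50 and that of *Ldhb* 0.29. Changes of the low genes, and not only small ones, may therefore have been missed at this depth.

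Levels by mouse were as follows. *Slc16a1* was at 71.6, 63.2 and 73.9 CPM at day 0 and at 61.9 to 104 CPM over the 9 cold mice. *Ldhb* was at 22.5, 42.1 and 31.2 CPM at day 0 and at 22.8 to 48.1 CPM in the cold. *Hk2* was at 505, 506 and 443 CPM at day 0 and at 453 to 583 CPM in the cold. Beige nuclei were 7.69 to 12.2% of adipocyte nuclei at day 0 and 26.1 to 32.5% on day 7 of cold, so the makeup of the sums differed between groups, and its part was not tested beyond the fit on white nuclei only, which called 0 members as well. Replicate 1 of day 1 of CL had 29 adipocyte nuclei and 48868 counts, and the other 20 mice had 68 or more nuclei.

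**Figure D5:**
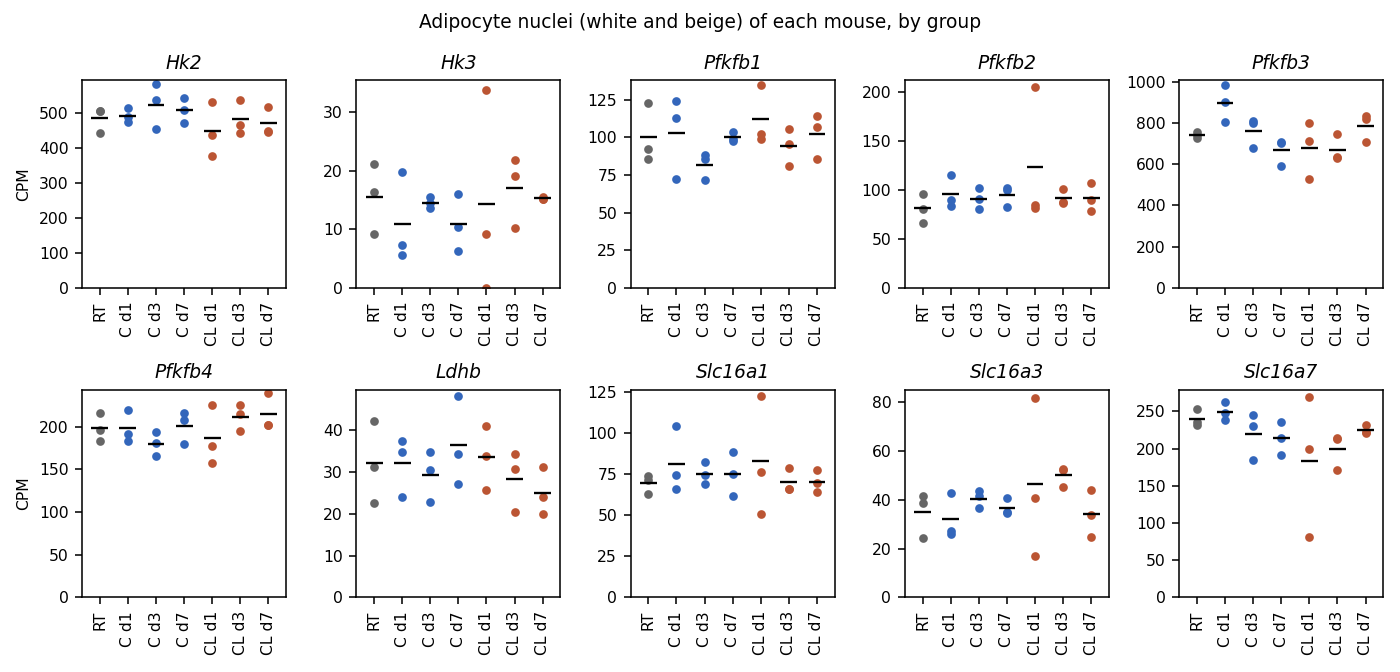
CPM of each gene in the adipocyte nuclei (white and beige) of each mouse (points) with group means (lines), for day 0 at room temperature (RT), cold (C) and CL on days 1, 3 and 7. *Pfkfb3* lies at 803 to 983 CPM on day 1 of cold and at 528 to 798 CPM on day 1 of CL, and no gene shown was called against day 0 after adjustment.

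In the other lists, the study's glycolytic set had 4 calls in 80 tests against day 0, where 3.88% of tests over all genes were called. *Pkm*, the pyruvate kinase, gave all 4, at 0.64 on day 7 of cold, 0.59 on day 3 of CL, 0.52 on day 7 of CL and 0.48 for the CL mean (log2). The further genes had 3 calls in 136 tests. *Hcar1* was lower on day 1 of CL (-0.89) and for the CL mean (-0.57), and *Hif1a*, the hypoxia-inducible factor subunit, was higher on day 1 of CL (0.76). CL against cold over the days called *Hk1* (0.35) and *Hkdc1* (0.79), hexokinases of other isoforms, where 2.75% of all genes were called.

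CL against cold gave 1 call among the members, in 40 tests over 4 contrasts, where 1.31% of tests over all genes were called (1.46% on day 3, 0.111% on day 7 and 2.75% for the mean over days). Before adjustment, p lay under 0.05 in 9 member tests, and the matching share over all genes was not counted. The 4 contrasts overlap, because the mean over days is built from the single days. *Pfkfb3* in adipocytes was at 983, 803 and 902 CPM on day 1 of cold and at 798, 528 and 712 CPM on day 1 of CL. All 3 CL mice were thus below all 3 cold mice, though the groups nearly touched. The share of all genes with such a separation was not counted. The day 0 mice were at 756, 727 and 741 CPM. The log2 difference was -0.45 (SE 0.11, adjusted p = 0.0243), and 0.922% of genes were called in that contrast. It was lost with DESeq2 (-0.45, adjusted p = 0.0568), in white nuclei only (-0.36, adjusted p = 0.141), in nuclei with at least 2000 counts (-0.42, adjusted p = 0.068) and at the promoter alone (-0.18, adjusted p = 0.89), and without any 1 of 3 mice: replicate 1 of day 1 of cold (adjusted p = 0.216), or replicate 2 (0.175) or 3 (0.223) of day 1 of CL. Summed B cell markers in these adipocyte libraries were at 80.3 to 139 CPM on day 1 of cold and 67.4 to 81.9 CPM on day 1 of CL, and without the peaks that are higher in B cells *Pfkfb3* was at -0.50 (adjusted p = 0.0129). In beige nuclei only the difference was -0.75 (log2), but day 1 of CL then rested on 1 library, replicate 3 with 95 nuclei.

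On day 3, *Pfkfb3* was at 809, 677 and 797 CPM in cold and 748, 633 and 630 CPM in CL, groups that overlap (-0.19, SE 0.09, adjusted p = 0.371). On day 7 the order was the other way, with 589, 709 and 705 CPM in cold and 709, 818 and 833 CPM in CL (0.24, SE 0.09, log2), and this did not pass (adjusted p = 0.419). Changes of the CL minus cold difference between days were also tested by edgeR, after the values were seen. For *Pfkfb3* the change was 0.25 from day 1 to day 3 (log2, adjusted p = 0.641) and 0.43 from day 3 to day 7 (adjusted p = 0.168), neither called. From day 1 to day 7 it was 0.68 (SE 0.14, log2, adjusted p = 0.0079), the only member call in these tests, and 0.347% of genes were called in that contrast. It was not called in white nuclei only (0.62, adjusted p = 0.0952), nor without replicate 1 of day 1 of cold (0.0523) or replicate 2 (0.0527) or 3 (0.116) of day 1 of CL.

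Single peaks of the members differed from day 0 in 4 of 592 tests, 1 higher and 3 lower (74 of the 120 peaks tested), where 2.42% of tests over all peaks were called. Of the member tests 88 had an unadjusted p under 0.05, a share that was not counted over all peaks. On simulated data this fit recovered only a minority of changes, so the low number of calls does not show that peaks did not change. In *Pfkfb3*, an exonic peak 69.3 kb into the gene (chr2:11484237-11485232) was at 28.6, 24.6 and 28.9 CPM at day 0 and at 70.9, 44.6 and 52.1 CPM on day 1 of cold, with no overlap (log2 difference 1.13, SE 0.25, adjusted p = 0.0139). It was at 46.5, 27.4 and 41.3 CPM on day 3 of cold and at 28.9, 36 and 33.3 CPM on day 7 of cold. In CL it was at 20.5, 22.5 and 38.6 CPM on day 1 and at 54.7, 33.65 and 37.5 CPM on day 3. On day 7 of CL it was at 32.55, 49.9 and 59.4 CPM. The mice of days 3 and 7 of CL were thus also above all day 0 mice, without a call. The share of all peaks with such a separation was not counted. The call on day 1 of cold was lost without replicate 2 (0.059) or 3 (0.278) of day 0 or without replicate 1 of day 1 of cold (0.33). An intronic peak at 37.9 kb (chr2:11515799-11516647) was at 30.7, 49.2 and 39.3 CPM at day 0 and at 13.1, 22.3 and 24.1 CPM on day 3 of CL (log2 difference -0.78, SE 0.24, adjusted p = 0.0374), again with no overlap, and that call was lost without any 1 of the 3 day 0 mice or without replicate 1 or 2 of day 3 of CL (adjusted p from 0.0541 to 0.251) and in white nuclei only (0.0972).

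The start peak of *Slc16a7* was lower after CL. It was at 32.7, 38.6 and 42.8 CPM at day 0 and at 23.8, 19.8 and 21.3 CPM on day 7 of CL (log2 difference -0.78, SE 0.24, adjusted p = 0.0343), with no overlap. Against the mean of the CL groups the log2 difference was -0.68 (SE 0.22, adjusted p = 0.0464). On day 3 of CL it was at 17.5, 25.4 and 25.2 CPM and on day 1 at 61.4, 28.1 and 23.6 CPM, where the value of 61.4 rests on 3 counts. In cold it was at 36.5, 39.7 and 39 CPM on day 1, 32.8, 22.8 and 38 CPM on day 3, and 29.9, 30 and 30.2 CPM on day 7. Both calls were lost without any 1 of the 3 day 0 mice (adjusted p from 0.0551 to 0.447), in white nuclei only (log2 differences of -0.68 and -0.63, adjusted p = 0.101 and 0.0856), and without certain CL mice. These were replicate 1 or 2 of day 7 for the first call (0.12 and 0.0646), and replicate 2 or 3 of day 1, replicate 1 or 2 of day 3 or replicate 2 of day 7 for the second (0.0505 to 0.203). Pooled over nuclei, this peak was higher in B cells (67.4 CPM) than in white adipocytes (30 CPM). Summed B cell markers in the adipocyte libraries were at 112 to 151 CPM at day 0. In CL they were at 67.4 to 81.9 CPM on day 1, 98.4 to 117 CPM on day 3 and 121 to 138 CPM on day 7. The part of B cell reads in this peak was not tested. With the promoter region of each gene in place of all its peaks, *Slc16a7* was lower for the CL mean than at day 0 (-0.67, SE 0.17, adjusted p = 0.0236, where 1.15% of genes were called) and lower in CL than in cold over the 3 days (-0.46, SE 0.10, adjusted p = 0.0121, where 0.421% were called). The promoter region of *Slc16a7* includes its start peak, so these calls are not separate from those above. In the same fits *Pfkfb4* was higher in CL than in cold on day 3 (0.45, SE 0.12, adjusted p = 0.0333, where 0.605% were called). The promoter fits were not repeated with mice left out or in white nuclei only.

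In the other cell types no member was called, and many could not be tested. The filter on counts left only *Pfkfb3* and *Pfkfb4* in APC1 and only *Hk2* and *Pfkfb3* in APC2. *Pfkfb1* was tested only in B cells and *Ldhb* in none. Standard errors of the members ran up to 0.43 (log2), so changes may have been missed. Cold and CL means against day 0 could be fitted in 7 cell types (APC1, APC2, macrophages, B cells and the 3 T cell clusters), while dendritic, endothelial and VSMC-annotated nuclei had groups with fewer than 2 libraries. Of 76 tests on 9 members, edgeR called 0 and DESeq2 called 0, where 0.212% of tests over all genes were called by edgeR. An unadjusted p under 0.05, whose share over all genes was not counted, was found in 4. Of these 4, 3 were *Slc16a7* for the CL mean, with log2 differences of 0.86 in macrophages (SE 0.28, adjusted p = 0.71), 0.87 in CD4 T cells (SE 0.35, adjusted p = 0.40) and 0.21 in B cells (SE 0.10, adjusted p = 0.333), and 1 was *Pfkfb3* in T cells (0.44, SE 0.18, adjusted p = 0.623). In B cells 3 list genes were called for the CL mean, *Pgm1* (0.67), *Pfkp* (0.43) and *Fbp2* (1.04). The share of all genes called in B cells alone was not counted, and the 0.212% above covers all 7 cell types.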

How the data were processed

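Single-nucleus ATAC-seq of iWAT from 21 mice was analysed from a deposited peak by nucleus matrix and nucleus annotation. Per the labels and methods, the authors aligned reads with Bowtie2 to mm10, removed duplicates per barcode, called peaks per cluster with MACS2, and removed nuclei with few reads, few reads in peaks or high doublet scores. The deposited counts are binary (65588856 ones, 145 stored zeros), so widely open peaks are flattened. Sequencing lanes, not mice, are the labelled samples, so mouse, group and type came from the annotation.

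Peaks were assigned to GENCODE vM21 protein-coding genes. In R 4.3.3, edgeR 4.0.16 fitted the sums by its quasi-likelihood method after TMM scaling and filterByExpr (minimum count 10, total 15, proportion 0.7). Tests were two-sided at 0.05 after Benjamini-Hochberg adjustment over all features, and the treatment group as covariate for beige against white. White and beige libraries of 1 mouse entered without a mouse term, and a fit with mouse as a block was an alternative. DESeq2 1.42.0 was the alternative. Cell types were compared by sign-flip permutation of log2(CPM + 1), with 100000 draws, or exactly below 10 mice. Fits were tested on simulated data. The fit of treated peaks recovered a minority of changes, and the criterion for passing was changed after this was seen, from recovery to the estimate and false calls. Members and lists were chosen with earlier results of these data known. All members, list genes and peaks past the threshold, and the 3 genes most like each member are named, except for items not reported here. Expression data and protein binding were not analysed here.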

Additional observations from a re-analysis of the deposited data

Results flagged for a closer look

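In the 10 libraries of the cluster annotated VSMC, *Pfkfb2* was at 270 CPM in replicate 2 of day 3 of CL, far from the others, which lay at 0 to 124 CPM, and this library has 10 nuclei. In the same cluster *Ldhb* was at 42.2 CPM in replicate 1 of day 7 of cold, while the 9 others lay at 0 to 7.62 CPM. The 10 libraries held 4 *Ldhb* counts in all, so this value rests on very few. The 10 members were tested for such values in this cluster, and chance sets apart about 1 in 20 groups. The CL minus cold difference of *Pfkfb3* in adipocytes differed between day 7 and day 1 by 0.68 (log2, adjusted p = 0.0079). This was the only member call in tests between days that were added after the values were seen. That call was lost in white nuclei only (adjusted p = 0.0952) and without replicate 1 of day 1 of cold (0.0523) or replicate 2 (0.0527) or 3 (0.116) of day 1 of CL. On day 1 every CL mouse was below every cold mouse, but the groups nearly touched. The highest CL mouse was at 798.1 CPM, in a sum of 48868 counts, and the lowest cold mouse was at 803.1 CPM. On day 7 the order was the other way and the groups again nearly touched, with the lowest CL mouse at 709.4 CPM and the highest cold mouse at 708.5 CPM. The day 7 contrast alone did not pass (edgeR, adjusted p = 0.419).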

How the results depend on the processing

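Depth limits the low members most: *Hk3* and *Ldhb* had 22 and 155 counts over all beige libraries, and the intervals of their differences are wide. Beige against white gave 3 to 4 member calls under the alternatives and 3 to 3 with each mouse left out, but at promoters only *Slc16a1* was lost and *Pfkfb3* called. No member call against day 0 was made under any alternative except promoter peaks only, which gave 1 (*Slc16a7*, CL mean), and leaving out mice gave 0 to 0. For CL against cold, the 1 call became 0 with DESeq2, 0 in white nuclei only, 0 in nuclei with at least 2000 counts and 2 at promoters only (*Slc16a7* and *Pfkfb4*), and 0 to 1 without a mouse. Other cell types gave 0 throughout. Without the filter on low counts, beige against white called 53 of 120 member peaks in place of 6. In that setting 44231 of all 189546 peaks were called, 5212 of them higher in beige, with a median over all peaks of -0.50. With each mouse left out in turn, 4 to 7 member peaks were called. The 4 peak calls against day 0 became 0 without the filter and 2 in white nuclei only. Of these 2, only the *Pfkfb3* peak at 69.3 kb on day 1 of cold was among the 4. The number of peak calls against day 0 was 0 to 6 without a mouse (fewer than 3 without any day 0 mouse, replicate 1 or 2 of day 3 of CL, or replicate 2 of day 7 of CL). The 5 neighbouring pairs of cell types became 0 at promoters only and 3 with libraries of at least 30 nuclei, and 4 to 9 without a mouse, with 9 without replicate 2 of day 0. Of 389 alternatives for 15 single genes or peaks, 339 kept direction and side of the threshold, 50 kept direction only, and 0 reversed. The cause of these shifts was not tested.

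Deviations of 63 pairs of mice with the same replicate number correlated at -0.12 to 0.12 (median 0.0017), 1 of them over 0.1. For 126 pairs with other numbers they correlated at -0.062 to 0.11 (median 0.00031). Because many genes have few counts, such low correlations cannot tell whether mice with the same number shared a batch. The paper states that its experiments were done in independent batches, without naming the mice of each batch. White and beige nuclei share their mouse, and with mouse as a block the 3 genes and the 6 peaks named were all called, with 1 further peak. With the replicate block the 4 peak calls against day 0 became 2, the *Slc16a7* start peak being lost (adjusted p = 0.0612 on day 7 of CL, 0.0533 for the CL mean), and no other call named here changed.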
